A study of Mus musculus with 21 samples.

Results

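Claudins, occludin and the plaque proteins beneath them form the tight junction, and 9 of their genes were followed here through 2 array experiments with TGF-b1 and an siRNA against the forkhead factor FoxQ1. The genes were Cldn1, Cldn3, Cldn4, Cldn6, Cldn7, Ocln, Tjp1, Tjp3 and Cgn, taken by their symbol in the array annotation. All 9 were measured among 18193 genes in NMuMG cells, and 8 of the 9 among 12393 genes in NM18 cells, where Cgn was not analysed. Where several probe sets measured a gene, the one with the highest mean over the arrays of a table stood for it and the others served as a check. All values are log2 array values, so a difference of 1 is a doubling, and levels are set side by side only within a gene.

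NMuMG is a line of normal mouse mammary gland epithelium that is widely used to follow the loss of epithelial features under TGF-b1. Those cells received 4-thiouridine, a uridine analogue that is built into RNA as it is made, at 200 µM for 2 h, and the control cells received it too. TGF-b1 at 5 ng/ml was either given for the same 2 h or left out. RNA carrying the analogue was enriched and is called newly made RNA here, and total RNA was measured beside it, which gives 4 groups of 3 arrays: newly made RNA with TGF-b1, newly made RNA of control cells, total RNA with TGF-b1 and total RNA of control cells. The second line, NM18, was transfected with 25 nM siRNA for 48 h in all, and TGF-b1 at 5 ng/ml was added after 8 h for the remaining 40 h. Its 3 groups of 3 arrays were TGF-b1 on top of FoxQ1 siRNA, TGF-b1 on top of control siRNA, and control siRNA alone, called untreated here although those cells were transfected as well. There was no group with FoxQ1 siRNA and without TGF-b1. The submitters describe the 3 arrays of a group as biological replicates. Array 1 of the untreated group and array 1 of the FoxQ1 siRNA group also carry a remark describing TGF-b1 for both siRNAs. Titles and treatment labels were followed, and results that change without both arrays are given as such.

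Tight junctions seal the space between epithelial cells near their apical side. Claudins are membrane proteins with 4 transmembrane segments whose mixture sets which ions pass, and occludin is another membrane protein of the same strands. The scaffold proteins ZO-1 and ZO-3, encoded by Tjp1 and Tjp3, and cingulin, encoded by Cgn, connect the strands with the actin cytoskeleton. Loss of these junctions is a known step of the epithelial-mesenchymal transition that TGF-b1 induces in mammary epithelial cells.

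The knockdown was checked first. Foxq1 read 7.57, 8.09 and 7.97 on the arrays with FoxQ1 siRNA and TGF-b1, against 9.08, 9.04 and 9.33 with control siRNA and TGF-b1. The groups did not overlap and differed by -1.27 ± 0.16 (log2 change ± SE, limma, adjusted p = 0.000291). Untreated NM18 cells read 7.91, 8.49 and 8.38, so that Foxq1 was 0.89 ± 0.16 higher with control siRNA and TGF-b1 (limma, adjusted p = 0.00164). Among 6 epithelial markers (Cdh1, Epcam, Krt8, Krt18, Krt19 and Esrp1), the mean per array was 9.19 to 10.67 in NMuMG cells and 10.32 to 11.08 in NM18 cells. The 7 fibroblast markers averaged 5.14 to 5.95 in NMuMG and 5.87 to 6.09 in NM18 cells. The 5 endothelial markers averaged 4.68 to 4.97 in NMuMG and 5.73 to 5.90 in NM18 cells. The 7 leukocyte markers averaged 5.98 to 6.39 in NMuMG and 6.98 to 7.17 in NM18 cells. The 6 basal or myoepithelial markers averaged 5.57 to 6.05 in NMuMG and 6.15 to 6.50 in NM18 cells. Single epithelial markers read very differently. Krt8, a keratin of simple epithelia, read 12.84 to 14.33 on the NMuMG and 14.18 to 14.42 on the NM18 arrays. Esrp1 read 3.70 to 4.41 on the NMuMG and 5.49 to 5.93 on the NM18 arrays. Epcam read 5.87 to 6.97 on the NM18 arrays. Levels of different lists were not compared by a test. In these bulk samples, fewer cells of a kind and less RNA per cell cannot be told apart.

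Claudin-4 is a barrier-forming claudin, and its gene was the only one of the 9 that rose with TGF-b1. Cldn4 lies on chromosome 5 (134945123 to 134946934 in the RefSeq annotation of GRCm38.p6, minus strand), and 39279 bases separate it from Cldn3, which runs on the opposite strand. The 250 bases before the start of each gene are shown because these neighbours behaved so differently in the values that follow. Both run in the direction of their gene, with RefSeq sequence of GRCm38.p6. Capitals mark the letters CACCTG, an E-box of the kind bound by Snail and Zeb repressors, and TGANTCA, the letters bound by AP-1 factors.
Cldn4, chr5:134946935-134947184, minus strand: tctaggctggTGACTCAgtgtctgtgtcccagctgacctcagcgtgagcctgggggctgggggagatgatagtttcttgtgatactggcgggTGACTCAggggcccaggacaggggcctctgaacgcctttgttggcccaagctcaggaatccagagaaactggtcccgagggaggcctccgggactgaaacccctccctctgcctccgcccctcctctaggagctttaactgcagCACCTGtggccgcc
Cldn3, chr5:134985964-134986213, plus strand: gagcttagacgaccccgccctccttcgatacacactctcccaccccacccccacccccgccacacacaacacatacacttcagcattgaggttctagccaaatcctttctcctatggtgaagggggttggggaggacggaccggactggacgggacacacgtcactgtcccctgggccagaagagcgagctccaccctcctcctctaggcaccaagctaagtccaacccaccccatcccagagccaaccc
The Cldn4 window held the AP-1 letters at 240 to 234 and at 158 to 152 bases before the start and the E-box at 14 to 9 bases before it. The Cldn3 window held neither. Among the 32851 mouse promoter windows of that length in the table, 6.75% held TGANTCA, which reads the same on both strands, 0.338% held it at 2 or more places, and 17.2% held CACCTG or CAGGTG. The letters CAGAC or GTCTG, the SMAD box, stood in 42.2% of all windows and once in that of Cldn4. TGTTTA or TAAACA, letters bound by forkhead factors, stood in 3952 of all 32851 windows and in none of the 12 windows of the 9 genes. Of those 12 windows, 6 held CACCTG or CAGGTG, 7 held the SMAD box and 1, that of Cldn4, held TGANTCA. The E-box letters stood before 5 of the 9 genes, among them Cldn6 and Cldn7, so they did not set Cldn4 apart. A match describes the letters only.

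TGF-b1 for 2 h raised Cldn4 and lowered Ocln and Cgn in newly made NMuMG RNA, and the other 6 genes did not pass the test. Cldn4 read 7.08, 6.06 and 6.49 with TGF-b1, against 5.67, 5.58 and 5.33 in control cells. Every treated array was above every control array, and the change was 1.01 ± 0.21, a 2.02-fold higher level (limma, adjusted p = 0.00681). Ocln read 6.82, 6.78 and 6.65 with TGF-b1, against 7.11, 7.24 and 7.30 in control cells. All treated arrays were below all control arrays, a change of -0.46 ± 0.12 (limma, adjusted p = 0.0322). Cgn read 8.23, 8.42 and 8.37 with TGF-b1, against 8.88, 9.08 and 9.15 in control cells. These groups were also apart, with the treated arrays lower, and the change was -0.70 ± 0.13 (limma, adjusted p = 0.00241). Thus 3 of 9 genes passed, beside 6.13% of all genes tested, with 1 of 9 higher beside 3.35% and 2 of 9 lower beside 2.79%. The median change of the 9 was -0.14, against -0.01 over all genes. Between the same newly made RNA groups 1 of 6 epithelial markers fell, Krt19 by 1.09 ± 0.17 on the log2 scale, and the mean of the list per array was 9.19 to 9.58 with TGF-b1 and 9.42 to 9.54 in control cells. Of the 7 fibroblast markers 1 rose, Col1a1 by 0.79 ± 0.16 (list mean 5.65 to 5.95 with TGF-b1, 5.37 to 5.81 in control cells), and of the 7 leukocyte markers 1 fell, Cd14 by 0.64 ± 0.15 on the log2 scale (5.98 to 6.11 with TGF-b1, 5.99 to 6.19 in control cells). None of the 5 endothelial and 6 basal or myoepithelial markers passed in limma, and none of them had an unadjusted p under 0.05. Their part in the junction values was not tested.

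The fall of Ocln lay near the threshold and was lost in 7 of 20 alternative settings, where its change was between -0.41 and -0.48. These were median centring of the arrays (adjusted p = 0.0505), a fit on the newly made RNA arrays alone (adjusted p = 0.0694), and leaving out array 2 or 3 of either newly made RNA group or array 1 of total RNA with TGF-b1 (adjusted p = 0.0501 to 0.144). The second Ocln probe set changed by -0.33 ± 0.12 (adjusted p over all probe sets = 0.175), and the second Cgn probe set by -0.54 ± 0.19 (adjusted p over all probe sets = 0.146), both with the sign of the first.

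**Figure D1:**
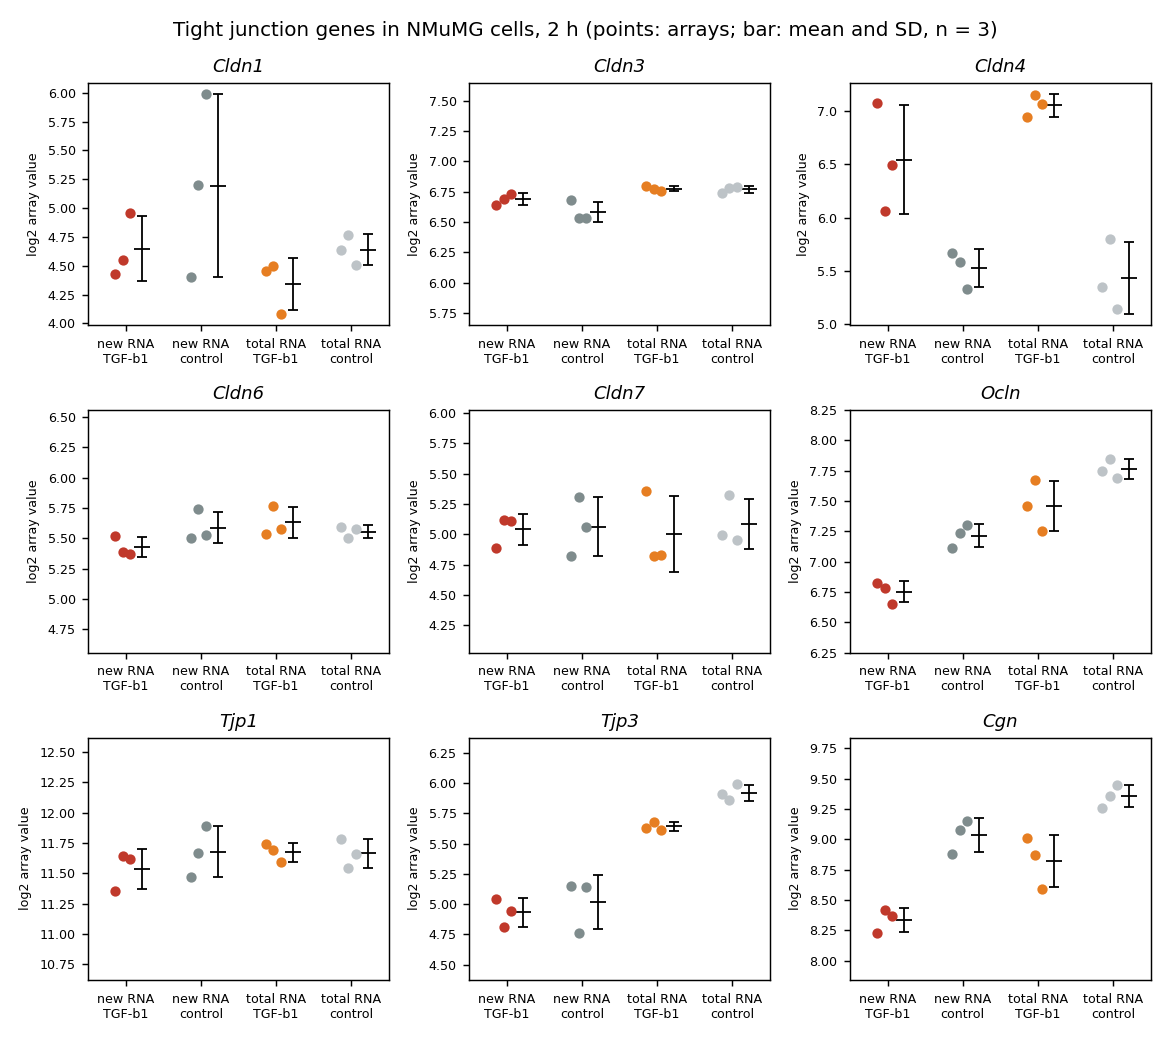
Log2 array values (vertical axis) of the 9 tight junction genes in NMuMG cells, in newly made RNA with TGF-b1 and of control cells and in total RNA with TGF-b1 and of control cells, with 1 point per array and the mean and SD of 3 arrays as a bar. Cldn4 was higher with TGF-b1 in both kinds of RNA without overlap, and Ocln and Cgn were lower in both without overlap. Ocln did not pass the test in total RNA. Cldn1 spread from 4.40 to 5.99 among the control arrays of newly made RNA.

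In total RNA the rise of Cldn4 had the smallest adjusted p among the 2 h TGF-b1 tests of the 9 genes. Cldn4 read 6.94, 7.15 and 7.07 in total RNA with TGF-b1, against 5.35, 5.80 and 5.14 in control cells. The groups were apart by more than their spread, and the change was 1.62 ± 0.21, a 3.08-fold higher level (limma, adjusted p = 0.000226). Cgn read 9.01, 8.87 and 8.59 with TGF-b1, against 9.26, 9.36 and 9.45 in control cells. It fell by 0.54 ± 0.13 on the log2 scale (limma, adjusted p = 0.0319), with all treated arrays below all control arrays. That call was lost without array 2 or 3 of total RNA with TGF-b1 (adjusted p = 0.0957 and 0.189) and without array 1, 2 or 3 of the total RNA controls (adjusted p = 0.0644, 0.103 and 0.131). In all, 2 of 9 genes passed, beside 2.48% of all genes, with 1 of 9 higher beside 1.46% and 1 of 9 lower beside 1.02%. In total RNA no marker of the 5 lists of cell types passed in limma, and an unadjusted p under 0.05 was found for 1 endothelial, 2 fibroblast and 1 leukocyte marker and for none of the epithelial and the basal or myoepithelial ones.

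Ocln, Tjp3 and Cldn1 lay lower in total RNA with TGF-b1 on every array without passing the test. The share of all genes whose groups were apart in this way was not counted, so this only describes the arrays. Cldn1 read 4.45, 4.50 and 4.08 with TGF-b1, against 4.64, 4.77 and 4.51 in control cells, a change of -0.30 ± 0.28 (limma, adjusted p = 0.874). Its 3 other probe sets changed by 0.09, -0.33 and -0.02 in total RNA, and none passed. Ocln read 7.46, 7.67 and 7.25 with TGF-b1, against 7.75, 7.85 and 7.69 in control cells, a change of -0.30 ± 0.12 (limma, adjusted p = 0.358). Tjp3 read 5.63, 5.68 and 5.61 with TGF-b1, against 5.91, 5.86 and 5.99 in control cells, a change of -0.28 ± 0.12 (limma, adjusted p = 0.454). Tjp1, the gene of the main scaffold ZO-1, showed no such separation: 11.74, 11.69 and 11.59 with TGF-b1 stood against 11.78, 11.54 and 11.66 in control cells, and the 95% interval of the change was -0.27 to 0.28.

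Cldn1, which encodes a claudin needed for the barrier of the mouse epidermis, depended on how the arrays were treated. In newly made RNA it read 4.43, 4.55 and 4.96 with TGF-b1, against 4.40, 5.20 and 5.99 in control cells. Control array 1 lay at the level of the treated arrays, and the change of -0.55 ± 0.28 did not pass (limma, adjusted p = 0.365). With the replicate number as a block within each kind of RNA it passed (limma, adjusted p = 0.0101). It also passed without control array 1, where the change was -0.95 (limma, adjusted p = 0.00844). Without control array 3, the highest of its group, the change shrank to -0.15 (limma, adjusted p = 0.853). The 3 other Cldn1 probe sets changed by -0.06, -0.07 and -0.11 in newly made RNA and none passed.

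Whether TGF-b1 changed newly made RNA differently from total RNA was tested as an interaction. None of the 9 genes passed, beside 0.0660% of all genes (12 genes, 0.0110% higher and 0.0550% lower), and none of the 9 had an unadjusted p under 0.05 in limma. For Cldn4 the change in newly made RNA minus that in total RNA was -0.61 ± 0.30 (unadjusted p = 0.0595). Its 95% interval was -1.25 to 0.03. For Ocln the interval was -0.52 to 0.21, and for Cgn -0.54 to 0.22. With the replicate number as a block within each kind of RNA, 86 genes passed this interaction, 2320 passed for TGF-b1 in newly made RNA, against 1116 without the block, and 1025 in total RNA, against 452. Of the 9 genes, the block changed the call of Cldn1 alone in these 3 comparisons.

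After 40 h of TGF-b1, NM18 cells with control siRNA had a higher Cldn4 level and lower Ocln, Tjp1 and Tjp3 levels than untreated cells. Cldn4 read 8.27, 7.64 and 8.41 with TGF-b1, against 6.37, 6.36 and 6.02 in untreated cells. The lowest treated array was above the highest untreated array by more than 1 log2 unit, and the change was 1.85 ± 0.21, a 3.61-fold higher level (limma, adjusted p = 5.31e-05). Ocln read 8.27, 8.47 and 8.58 with TGF-b1, against 8.91, 8.92 and 9.09 in untreated cells. The groups were apart, and Ocln fell by 0.53 ± 0.09 on the log2 scale (limma, adjusted p = 0.000886). Tjp1 read 10.95, 11.13 and 10.97 with TGF-b1, against 11.49, 11.41 and 11.55 in untreated cells. It fell by 0.46 ± 0.07 on the log2 scale without overlap of the groups (limma, adjusted p = 0.000404).

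Tjp3 read 6.28, 5.94 and 6.06 with TGF-b1, against 6.50, 6.21 and 6.57 in untreated cells. Its groups overlapped, although each treated array was below the untreated array of the same number. The change of -0.33 ± 0.11 was just past the threshold (limma, adjusted p = 0.0369), and the call was kept with the replicate number as a block. The call was lost in 8 of 16 alternative settings (adjusted p = 0.0529 to 0.152): without both arrays that carry the remark, after median centring, in a fit on the 2 groups alone, and without any one of untreated arrays 1 and 3, control siRNA arrays 2 and 3 with TGF-b1, and array 1 with FoxQ1 siRNA. In all, 4 of 8 genes passed, beside 30.7% of all genes, with 1 of 8 higher beside 13.2% and 3 of 8 lower beside 17.5%. The median change of the 8 was 0.03 and that of all genes 0.01 (limma log2 changes). Between these groups 2 of 6 epithelial markers also fell, with changes of -1.04 ± 0.09 for Cdh1 and -3.11 ± 0.24 for Krt19, and the mean of the list per array was 10.32 to 10.39 with TGF-b1 and 10.95 to 11.08 in untreated cells. Of the 7 fibroblast markers 1 rose (list mean 6.04 to 6.09 with TGF-b1, 5.87 to 5.93 untreated), of the 7 leukocyte markers 2 rose and 1 fell (6.98 to 7.01 with TGF-b1, 7.06 to 7.12 untreated), and of the 6 basal or myoepithelial markers 1 rose (6.22 to 6.38 with TGF-b1, 6.15 to 6.25 untreated). The part of such shifts in the junction values was not tested.

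**Figure D2:**
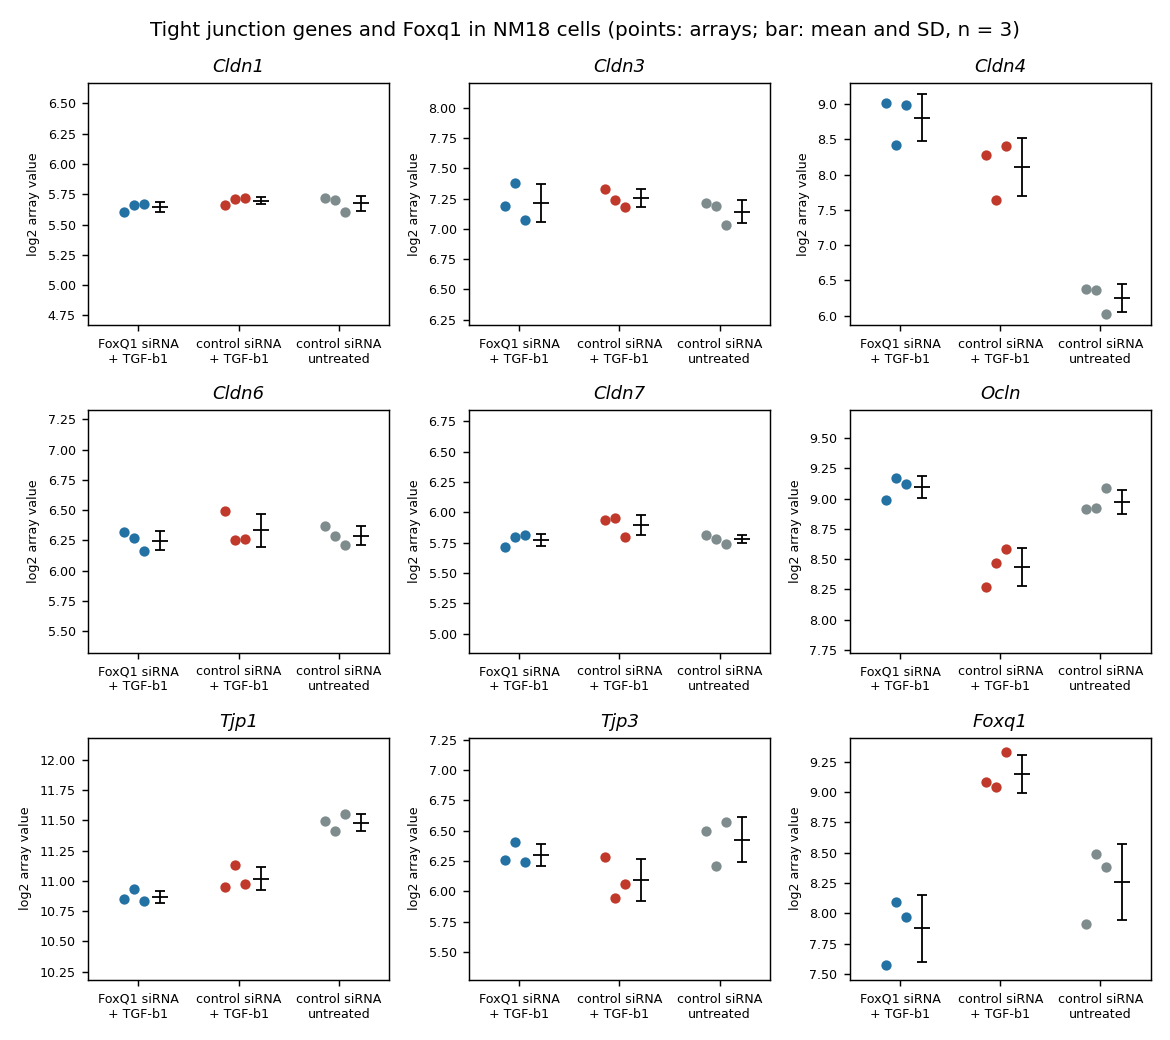
Log2 array values (vertical axis) of 8 tight junction genes and Foxq1 in NM18 cells with FoxQ1 siRNA and TGF-b1, with control siRNA and TGF-b1, and with control siRNA untreated, with 1 point per array and the mean and SD of 3 arrays as a bar. Cldn4 was highest with FoxQ1 siRNA and lowest in untreated cells, Tjp1 was lower in both groups with TGF-b1, and Ocln was lowest with control siRNA and TGF-b1.

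The comparison of FoxQ1 siRNA with control siRNA, both under TGF-b1, addressed the junction genes when TGF-b1 acts with less FoxQ1. Ocln and Cldn4 were higher with FoxQ1 siRNA than with control siRNA, and the other 6 genes did not pass. Ocln read 8.99, 9.17 and 9.12 with FoxQ1 siRNA, against 8.27, 8.47 and 8.58 with control siRNA. All arrays with FoxQ1 siRNA were above all control arrays, and the change was 0.66 ± 0.09, a 1.58-fold higher level (limma, adjusted p = 0.000432). It passed in all 17 alternative settings, with adjusted p between 6.04e-05 and 0.00254. The 250 bases before the first annotated start of Ocln are shown because this was the steadiest response to FoxQ1 siRNA among the 8 genes.
Ocln, chr13:100552719-100552968, minus strand: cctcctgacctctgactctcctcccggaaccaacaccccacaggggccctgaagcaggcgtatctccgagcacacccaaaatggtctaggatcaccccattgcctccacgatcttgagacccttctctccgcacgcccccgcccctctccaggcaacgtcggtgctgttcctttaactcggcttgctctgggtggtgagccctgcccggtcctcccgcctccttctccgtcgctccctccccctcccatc
This window, from RefSeq on GRCm38.p6 and in the direction of the gene, held no E-box, AP-1, SMAD box or forkhead letters as spelled out above. A second annotated start lies 220 bases further into the gene, and the window before it held CAGGTG at 213 to 208 and at 68 to 63 bases before that start.

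Cldn4 read 9.01, 8.42 and 8.99 with FoxQ1 siRNA and TGF-b1, against 8.27, 7.64 and 8.41 with control siRNA and TGF-b1. The groups did not overlap, but array 2 of FoxQ1 siRNA at 8.42 was almost level with array 3 of control siRNA at 8.41. Array 2 was the lowest of both groups, and each FoxQ1 siRNA array was above the control siRNA array of the same number. The call was kept with the replicate number as a block. The change of 0.70 ± 0.21 (limma, adjusted p = 0.0327) was lost in 6 of 16 alternative settings. These were an intensity trend with a robust variance prior (adjusted p = 0.0765), leaving out both arrays that carry the remark (adjusted p = 0.149), and leaving out array 1 or 3 of FoxQ1 siRNA (adjusted p = 0.122 and 0.11) or array 1 or 2 of control siRNA with TGF-b1 (adjusted p = 0.0555 and 0.102). The change stayed above 0 in each, at 0.47 to 0.78. So 2 of 8 genes passed, beside 19.6% of all genes, and both were higher, beside 11.3% of all genes higher and 8.28% lower.

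Tjp1 did not follow Ocln. It read 10.85, 10.93 and 10.83 with FoxQ1 siRNA, against 10.95, 11.13 and 10.97 with control siRNA, with the FoxQ1 siRNA arrays lower and without overlap (-0.15 ± 0.07, limma, adjusted p = 0.174). Tjp3 read 6.26, 6.41 and 6.24 with FoxQ1 siRNA, against 6.28, 5.94 and 6.06 with control siRNA, and the change of 0.21 ± 0.11 did not pass (limma, adjusted p = 0.231). Between the same groups 2 of 6 epithelial markers rose, Cdh1 by 1.05 ± 0.09 and Epcam by 0.66 ± 0.13, beside 11.3% of all genes higher. Krt19, which had fallen with TGF-b1, did not pass. It read 10.53, 11.32 and 10.51 with FoxQ1 siRNA, against 10.06, 10.86 and 10.24 with control siRNA. The mean of the epithelial list per array was 10.61 to 10.86 with FoxQ1 siRNA and 10.32 to 10.39 with control siRNA. Of the 7 leukocyte markers 3 rose, and the list mean was 7.09 to 7.17 with FoxQ1 siRNA and 6.98 to 7.01 with control siRNA. Of the 6 basal or myoepithelial markers 1 rose (6.37 to 6.50 with FoxQ1 siRNA, 6.22 to 6.38 with control siRNA), and of the 7 fibroblast markers none passed. Their part in the junction values was not tested.

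Set against untreated cells, those with FoxQ1 siRNA and TGF-b1 had the largest Cldn4 difference of the 3 NM18 comparisons and a lower Tjp1. These comparisons share their arrays and are not independent. Cldn4 at 9.01, 8.42 and 8.99 stood against 6.37, 6.36 and 6.02 in untreated cells, a change of 2.56 ± 0.21 and a 5.88-fold higher level (limma, adjusted p = 2.5e-06). Tjp1 at 10.85, 10.93 and 10.83 stood against 11.49, 11.41 and 11.55 in untreated cells, a change of -0.61 ± 0.07 (limma, adjusted p = 3.38e-05). Neither gene's groups overlapped. Ocln at 8.99, 9.17 and 9.12 overlapped with 8.91, 8.92 and 9.09 in untreated cells, and its change of 0.12 ± 0.09 (limma, adjusted p = 0.351) had a 95% interval of -0.08 to 0.32. That interval bounds the difference and does not show the levels to be equal. Here 2 of 8 genes passed, beside 37.9% of all genes, with 1 of 8 higher beside 19.3% and 1 of 8 lower beside 18.6%.

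The order of the levels therefore differed from gene to gene in NM18 cells. For Cldn4 the highest level was with FoxQ1 siRNA and TGF-b1, the next with control siRNA and TGF-b1, and the lowest in untreated cells. Each step passed the test, but that between the 2 siRNAs was lost in 6 of 16 alternative settings. For Ocln, FoxQ1 siRNA with TGF-b1 (mean 9.10 ± 0.09, SD, n = 3) and untreated cells (8.97 ± 0.10) did not differ beyond their spread, and control siRNA with TGF-b1 came last (8.44 ± 0.16). For Tjp1 untreated cells were highest, and the 2 groups with TGF-b1 did not differ by the test.

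**Figure D3:**
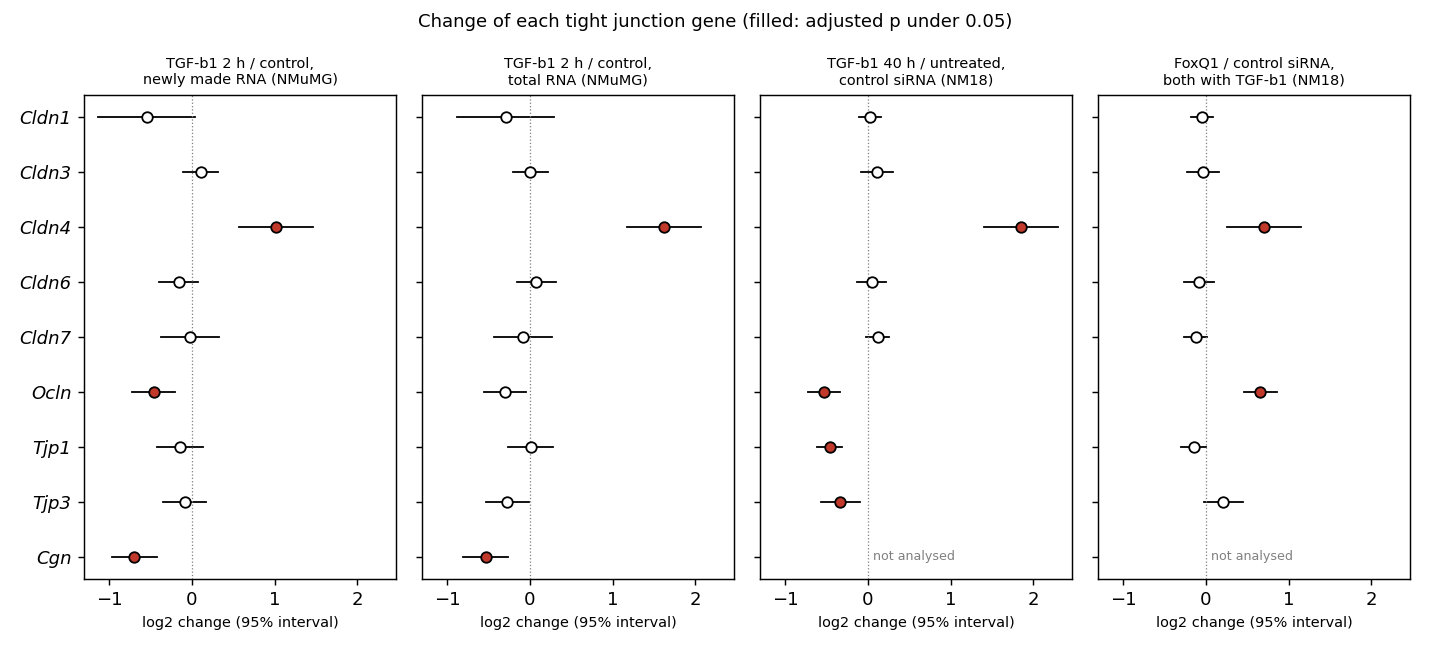
Log2 change with its 95% interval (horizontal axis) of each tight junction gene in 4 comparisons, from left to right TGF-b1 over control in newly made and in total NMuMG RNA, TGF-b1 over untreated in NM18 cells with control siRNA, and FoxQ1 siRNA over control siRNA in NM18 cells with TGF-b1, with filled points where the adjusted p was under 0.05. Cldn4 lies right of 0 in all 4 panels, while Ocln lies left of 0 in the first 3 and right of 0 in the last.

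The remaining claudins, Cldn3, Cldn6 and Cldn7, passed no reported test in any comparison of either table, and Cldn1 passed none in NM18 cells. With the mean of all its probe sets, Cldn3 passed for newly made against total RNA of control cells (-0.22, limma, adjusted p = 0.0444). Over the 12 NMuMG arrays Cldn3 stayed between 6.53 and 6.80, Cldn6 between 5.37 and 5.77 and Cldn7 between 4.82 and 5.36. Over the 9 NM18 arrays Cldn1 stayed between 5.60 and 5.72, Cldn3 between 7.03 and 7.38, Cldn6 between 6.16 and 6.49 and Cldn7 between 5.71 and 5.95. By comparison, the NM18 values of Cldn4 spanned 6.02 to 9.01. The 95% interval of the 40 h TGF-b1 change was -0.11 to 0.15 for Cldn1, -0.08 to 0.30 for Cldn3, -0.13 to 0.22 for Cldn6 and -0.02 to 0.26 for Cldn7. The files give no detection calls, so whether such low probe sets were above background is not known. The same holds for Tjp3 in both lines, for Cldn1 in NMuMG cells and for Cldn4 without TGF-b1. Cldn4 read 5.14 to 5.80 in total RNA of NMuMG control cells, where the array medians over all probe sets were 5.71 to 5.73. In untreated NM18 cells it read 6.02 to 6.37, with array medians of 7.37 to 7.42. For Cldn3, the 3 other probe sets of the NM18 table changed by -0.003 to 0.21 with TGF-b1 and none passed.

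Newly made and total RNA were also compared with each other, as deposited, at 2 h. A lower newly made level is found for RNAs that turn over slowly, among other reasons, and 44.0% of all genes differed in control cells. Tjp3 read 5.15, 4.76 and 5.14 in newly made RNA of control cells, against 5.91, 5.86 and 5.99 in their total RNA. The groups were far apart, a change of -0.90 ± 0.12 (limma, adjusted p = 1.18e-05). Ocln read 7.11, 7.24 and 7.30 in newly made RNA, against 7.75, 7.85 and 7.69 in total RNA, a change of -0.55 ± 0.12 (limma, adjusted p = 0.00127). Both were lower in newly made RNA, so that 2 of 9 genes passed, both lower beside 26.8% of all genes lower and 17.2% higher. That excess of lower genes depended on the setting. After median centring of the arrays, 3828 of the 7863 genes that passed in control cells were higher. With TGF-b1 it was 4019 of 7997.

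With TGF-b1, 3 of 9 genes were lower in newly made than in total RNA, beside 45.0% of all genes in either direction, 18.3% higher and 26.8% lower. Ocln changed by -0.71 ± 0.12 (limma, adjusted p = 0.000121), Tjp3 by -0.71 ± 0.12 (limma, adjusted p = 0.000128) and Cgn by -0.48 ± 0.13 (limma, adjusted p = 0.0048). Probe sets disagreed for 2 of these genes. The second Cgn probe set was 0.85 ± 0.19 higher in newly made RNA of control cells and 0.59 ± 0.19 higher with TGF-b1 (adjusted p over all probe sets = 0.00143 and 0.0181). The second Ocln probe set differed by 0.20 ± 0.12 in control cells (adjusted p over all probe sets = 0.197) and by 0.07 ± 0.12 with TGF-b1 (adjusted p over all probe sets = 0.712). So the direction between the 2 kinds of RNA is uncertain for Cgn, and for Ocln it rests on 1 probe set. Cldn4 differed by 0.10 ± 0.21 in control cells (limma, adjusted p = 0.759) and by -0.51 ± 0.21 with TGF-b1 (limma, adjusted p = 0.0614). The difference with TGF-b1 passed without array 1 of newly made RNA with TGF-b1 (-0.78, adjusted p = 0.00208) and without array 2 of the total RNA controls (-0.51, adjusted p = 0.0496).

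A wider list of 50 other tight junction genes, from further claudins to polarity scaffolds, was measured for 47 in NMuMG and 41 in NM18 cells. TGF-b1 for 2 h raised 4 and lowered 5 of the 47 in newly made RNA, 19.1% of the list beside 6.13% of all genes. Cldn2, which encodes a claudin that forms cation pores, read 10.68, 10.69 and 10.50 with TGF-b1, against 11.46, 11.55 and 11.71 in control cells. It fell by 0.95 ± 0.11 on the log2 scale without overlap (limma, adjusted p = 5.06e-05). Arhgef18, an activator of RhoA at cell junctions, rose by 0.89 ± 0.14, Jam2, a junctional adhesion molecule, rose by 1.34 ± 0.25, and Magi3, a scaffold, fell by 0.67 ± 0.13 on the log2 scale. In total RNA 1 of 47 rose and 2 fell, 6.38% of the list beside 2.48% of all genes. Arhgef18 changed by 0.78 ± 0.14, Cldn2 by -0.51 ± 0.11, and Pard6b, an adaptor of the Par polarity complex, by -0.54 ± 0.13. No gene of the list passed the interaction between kinds of RNA in limma, where 3 of 47 had an unadjusted p under 0.05.

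At 40 h, 9 of 41 listed genes rose and 9 fell, 43.9% of the list beside 30.7% of all genes. Arhgef18 rose by 1.30 ± 0.10 and Amot, the gene of angiomotin, by 1.41 ± 0.16, while Cldn2 (-1.03 ± 0.12) and Magi1, another scaffold (-0.71 ± 0.10), fell. With FoxQ1 siRNA under TGF-b1, 7 of 41 rose and 3 fell, 24.4% of the list beside 19.6% of all genes. Cldn2 read 11.39, 11.85 and 11.37 with FoxQ1 siRNA, against 10.65, 10.66 and 10.59 with control siRNA, and 11.54, 11.61 and 11.84 in untreated cells. The FoxQ1 siRNA arrays were all above the control siRNA arrays and overlapped with the untreated ones, and the change over control siRNA was 0.90 ± 0.12 (limma, adjusted p = 0.000404). Magi1 rose by 0.52 ± 0.10 and Marveld2, the gene of tricellulin, by 0.44 ± 0.09, while Prkci, an atypical protein kinase C of the Par complex, fell by 0.58 ± 0.09 on the log2 scale. Against untreated cells, FoxQ1 siRNA with TGF-b1 left 10 of 41 higher and 4 lower, 34.1% of the list beside 37.9% of all genes. Among them were Arhgef18 (1.08 ± 0.10), Amot (1.24 ± 0.16), Jam2 (0.56 ± 0.08) and Magi3 (-0.95 ± 0.12).

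**Figure D4:**
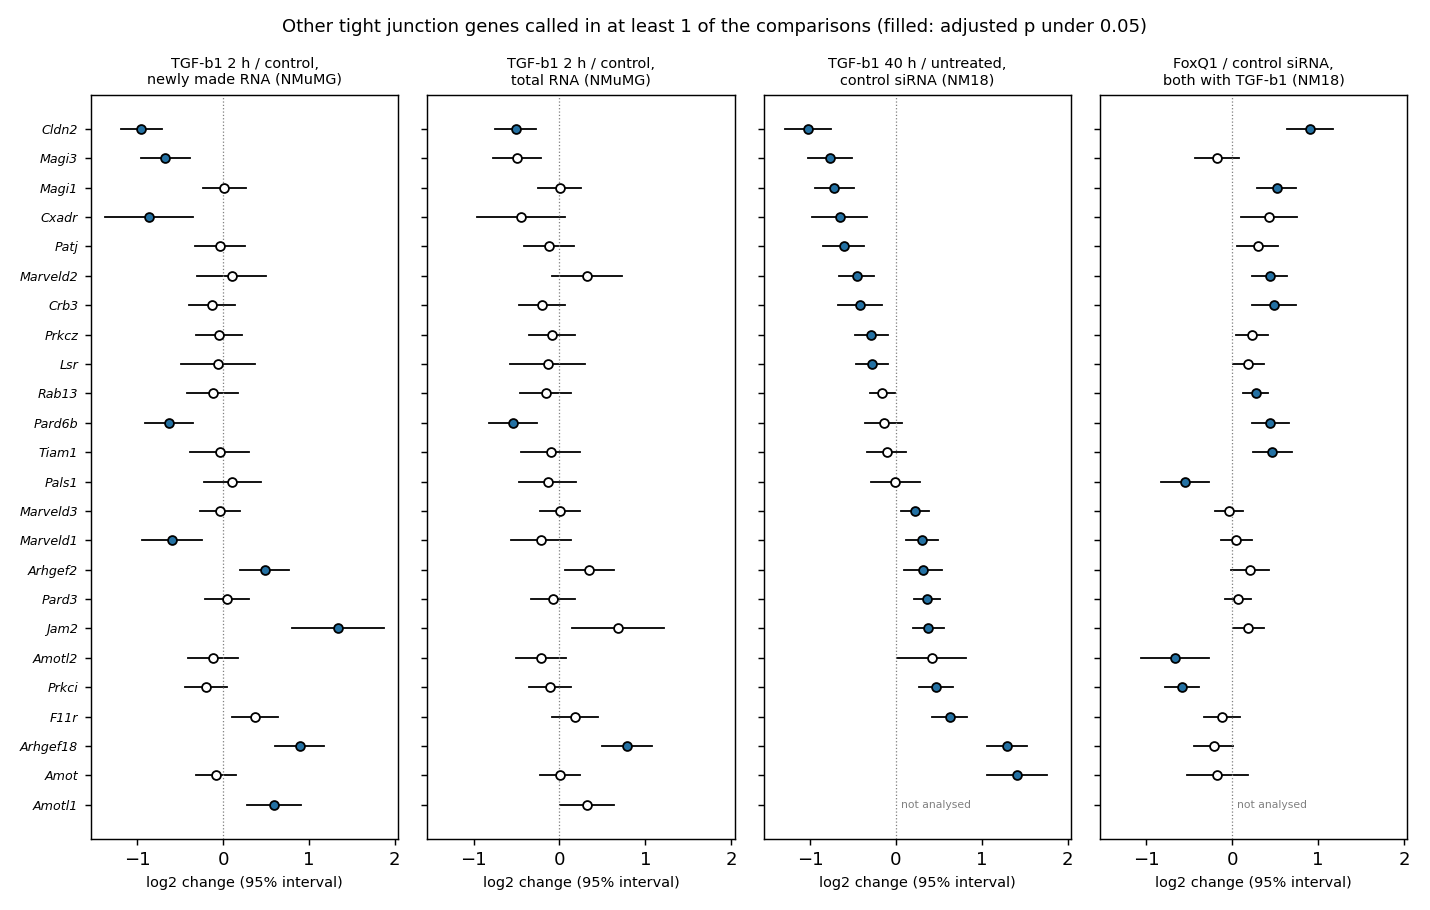
Log2 change with its 95% interval (horizontal axis) of the 24 other tight junction genes called in at least 1 of the 4 comparisons, in the same panels from left to right, with filled points where the adjusted p was under 0.05. Cldn2 lies left of 0 in the first 3 panels and right of 0 with FoxQ1 siRNA, while Arhgef18 lies right of 0 in the first 3.

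Between newly made and total RNA, newly made RNA of control cells had 9 of 47 listed genes higher and 14 lower, and with TGF-b1 it had 10 higher and 14 lower. That is 48.9% of the list beside 44.0% of all genes in control cells and 51.1% beside 45.0% with TGF-b1. The genes with the smallest p were the same in both. Pals1, a polarity scaffold, was 1.63 ± 0.16 higher in control cells and 1.88 ± 0.16 higher with TGF-b1. Ybx3, a transcription factor that ZO-1 binds, changed by -1.49 ± 0.12 and -1.72 ± 0.12, Patj, a scaffold that binds Pals1, by -1.47 ± 0.14 and -1.38 ± 0.14, and Lsr, a tricellular junction protein, by -2.05 ± 0.20 and -1.96 ± 0.20, in control cells and with TGF-b1 in that order.

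Among the 12393 genes measured in both tables, the one whose array values ran most like those of Cldn4 was Dusp2, which encodes a MAP kinase phosphatase, with r = 0.96 over 12 NMuMG arrays and 0.97 over 9 NM18 arrays, followed by Rnf19b (0.908 and 0.924). For Ocln it was Mgst2 (0.942 and 0.97) and then Trpt1 (0.932 and 0.982), for Tjp1 Zwilch (0.928 and 0.928) and then Melk (0.924 and 0.908), and for Tjp3 Atpif1 (0.94 and 0.884) and then Pkm (0.963 and 0.876). The lower of the 2 values set the order. For Cldn1, Cldn3, Cldn6 and Cldn7 the closest genes were Impact (0.843 and 0.891), Sox17 (0.88 and 0.832), Angptl7 (0.751 and 0.75) and Ctns (0.659 and 0.79). Among the tight junction genes themselves, Cldn4 and Tjp1 ran opposite over the 9 NM18 arrays (r = -0.994), while over the 12 NMuMG arrays r was -0.374. Ocln and Cgn ran together in NMuMG cells (r = 0.867), as did Ocln and Tjp3 (r = 0.858 in NMuMG, 0.573 in NM18 cells). These values are descriptions, over arrays that share groups and replicate numbers.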

How the data were processed

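A table of 12 NMuMG arrays and a table of 9 NM18 arrays, all Affymetrix mouse arrays, hold the log2 expression values as deposited by the authors. No header states the scale, and log2 is read from the values, which lie between 2.34 and 14.8 (NMuMG) and between 4.57 and 14.6 (NM18). The submitters' processing notes list affy 1.18.2 with no role, and the background correction and normalization are not given in the sources used here. Per the labels' protocols, NMuMG RNA went through the Two-Cycle kit and NM18 RNA through a 3′ IVT kit, so levels were never set across the tables. Probe sets with exactly 1 gene symbol in the platform annotation were kept, 34945 of 45101 in the NMuMG and 20380 of 22690 in the NM18 table, and the probe set with the highest mean stood for its gene.

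Each table was fitted once over all its groups with limma 3.58.1 in R 4.3.3 (lmFit, eBayes, two-sided), with Benjamini-Hochberg adjustment over all its genes, and a gene passed at an adjusted p under 0.05. The scripts were tested on simulated data. The number of arrays, 3 a group, limits the precision. Array numbers may pair groups: deviations from the group means correlated above 0.1 for all 9 same-numbered NM18 pairs (0.16 to 0.608) and for those within a kind of NMuMG RNA (0.122 to 0.732), but not for all between kinds of RNA, so a block within each kind of RNA was used for the effects of TGF-b1 at 2 h, and its value stands beside those that it changed.

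Named genes were the 9 members, Foxq1, up to 4 genes of the other tight junction list with the smallest p per comparison among those that passed, and for each member the genes with the most similar values. The members and lists were chosen with earlier results of these data known. Genes of the other list without a value are not reported here. Promoter windows were read from a RefSeq table of GRCm38.p6. The alternatives tried were median centring, quantile normalization, fits on the compared groups alone, replicate blocks, genes above the median gene, means of all probe sets of a gene, an intensity trend with a robust prior, and each array left out in turn.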

Additional observations from a re-analysis of the deposited data

How the results depend on the processing

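The number of tight junction genes that passed differed from the reported one under at least 1 setting in 7 of 8 comparisons, in 4 of them by over 1.5 times. It ran from 2 to 4 for TGF-b1 in newly made RNA (3 reported), from 2 to 3 for newly made against total RNA of control cells (2 reported) and from 2 to 4 for the same with TGF-b1 (3 reported), and was 0 for the interaction throughout. Among genes above the median gene, where fewer of them are tested, it was 1 for TGF-b1 in total RNA (4 tested), 2 for TGF-b1 at 40 h, 1 for FoxQ1 siRNA and 1 for FoxQ1 siRNA with TGF-b1 against untreated cells (2 tested in each), against 2, 4, 2 and 2. For FoxQ1 siRNA it was also 1 with an intensity trend and robust prior and 1 without both arrays that carry the remark, and with each array left out in turn it was 1 to 2, as it was for TGF-b1 in total RNA. Blocks that lie within 1 kind of RNA cannot set newly made against total RNA, so that fit was not run for it. Same-numbered arrays did not all deviate together between the kinds of RNA. A replicate block over the whole table brought Cgn in control cells (-0.32, adjusted p = 0.0485) and Cldn4 with TGF-b1 (-0.51, adjusted p = 0.0299) past the threshold there. The replicate block changed no call of the 8 genes in NM18 cells. Over all genes, the count passing ran from 680 (a fit on the compared arrays alone) to 2320 (replicate block within each kind of RNA) for TGF-b1 in newly made RNA, from 308 to 1025 in total RNA, and from 4 to 86 for the interaction. The mean of all Cgn probe sets turned the difference between newly made and total RNA to 0.26 (adjusted p = 0.049) in control cells and 0.051 (adjusted p = 0.735) with TGF-b1, since its probe sets disagree. Of the values of single genes under all these settings, 27 lost and 12 gained a call, 2 reversed, and 1206 kept their call, 41 of them with the other sign and never past the threshold; the cause was not tested. The rise of Cldn4 with TGF-b1 passed in both lines under every setting that tested it, as did Ocln and Tjp1 at 40 h and Ocln with FoxQ1 siRNA. Cldn4 was not among the genes above the median gene in either line, so that setting did not test it.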
